A study of Rattus norvegicus with 12 samples.

Results

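The interferon response genes examined here were Ifnar1, Stat2, Irf9, Irf1, Irf7, Ifi27, Isg15, Ifit3 and Mx1. They were chosen by symbol, as the records of the deposited rat expression table carrying one of these 9 names, out of 22442 records in all. Isg15 and Ifnar1 each had 2 records, and the record with the higher mean over the 12 libraries was used. The libraries were made from fibroblast-like synoviocytes (FLS), the stromal cells of the joint lining, which the study took from rats with adjuvant arthritis and used at the third passage. FCA cells received medium only. AT10, AT1 and AT01 cells received taurochenodeoxycholic acid (TCDCA), a taurine-conjugated bile acid, at 10, 1 and 0.1 µM for 12 h. All groups therefore came from diseased animals, no cells of healthy rats and no interferon-treated cells were among the libraries, and each group had 3 libraries. The study describes the 3 libraries of a group as repeats, but the sources do not say whether these were separate cultures or animals or whether animals were pooled, so the p-values below measure only the spread between these libraries, which may be technical.

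Interferons are secreted cytokines of antiviral defence. Type I interferons bind a receptor made of the chains Ifnar1 and Ifnar2, whose bound kinases Tyk2 and Jak1 phosphorylate STAT proteins such as Stat2, which with Irf9 enters the factor ISGF3. ISGF3 binds the interferon-stimulated response element (ISRE) in promoters of genes such as Isg15, Mx1, Ifit3, Irf7 and Ifi27, whereas interferon-gamma acts through the gamma-activated site (GAS), as in the Irf1 promoter.

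Short elements of this pathway were looked for in the 250 bases before each gene start in the RefSeq table of the GRCr8 rat assembly, which held 8 of the 9 genes. GAAANNGAA, a stretch of the ISRE, was read on both strands, so that a match to the opposite strand reads TTCNNTTTC. TTCNNNGAA, the core of the GAS, reads alike on both strands, and no match of one motif overlapped a match of the other in these genes. The sequences below show the matches in capitals, 5′ to 3′ on the strand of the gene, in 3 genes with an ISRE stretch whose RNA levels lay far apart, and in Irf1 with a GAS core.

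Ifi27, chr6:128355123-128355256, plus strand: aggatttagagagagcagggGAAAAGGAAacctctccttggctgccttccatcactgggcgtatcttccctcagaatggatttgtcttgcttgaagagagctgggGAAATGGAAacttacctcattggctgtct

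Irf7, chr1:205800053-205800121, minus strand: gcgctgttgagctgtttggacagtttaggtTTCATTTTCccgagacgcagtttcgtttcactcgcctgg

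Ifit3, chr1:241527253-241527325, plus strand: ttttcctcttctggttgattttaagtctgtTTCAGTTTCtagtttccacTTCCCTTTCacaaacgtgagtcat

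Irf1, chr10:38417763-38417831, plus strand: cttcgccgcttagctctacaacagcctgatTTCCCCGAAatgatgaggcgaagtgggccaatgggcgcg

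Ifi27 held 2 ISRE stretches, which began 169 and 84 bases before the gene start. Ifit3 also held 2, at 43 and 24 bases, and Irf7 held 1 at 68 bases. Irf9, like Irf1, held a GAS core, 99 bases before its start against 142 in Irf1. An ISRE stretch was thus present in 3 of 8 interferon response genes (37.5%), against 2717 of 33469 promoters of the table (8.12%), and a GAS core in 2 of 8 (25%) against 2566 (7.67%). Neither was in the windows of Ifnar1, Stat2 and Mx1, and the window of Isg15 was not analysed here. These matches describe letters only, and the build behind the deposited records is not given in the sources used here, so these coordinates belong to the RefSeq table.

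The table gave FPKM, fragments scaled by transcript length and by mapped reads, which sets genes of different length on 1 scale. Column sums lay between 284210 and 309696 FPKM. The study lists the total reads of each library, which were highest in the third AT01 library. Read counts per record were not among the values, so no counting interval can be given for a single FPKM. The label of the cells was checked against markers: all 8 fibroblast and synoviocyte markers with a record had means over 1 FPKM, such as Vim, the mesenchymal filament protein, at 2658 FPKM and Thy1 at 138 FPKM. Of 5 macrophage markers with a record, Cd14 (with a mean of 13.8 FPKM) and Cd68 (1.66 to 2.91 FPKM) were above 1, whereas Csf1r reached 0.26 FPKM and Aif1 and Adgre1 0.03 FPKM. The summed macrophage markers ranged from 6.49 to 21.9 FPKM in FCA and 18.4 to 21.4 in AT10. In AT1 the sum ran from 5.71 to 17.6 FPKM, and in AT01 from 6.09 to 20.2. Most of this sum was Cd14, which ranged from 3.6 to 18.8 FPKM. Cd14 was low in the third FCA, first AT1 and first AT01 libraries, and at least 15.7 FPKM elsewhere. The range of the sum thus came mostly from the Cd14 record, while Cd68 kept to its narrower range. The part of the macrophage and fibroblast markers in the results below was not tested. All 5 T and B cell markers stayed under 0.1 FPKM in every library.

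The 9 genes differed widely in level. The mean over 12 libraries fell from 149.9 FPKM for Ifi27 through 8.89 for Ifnar1, 4.04 for Irf1, 3.88 for Stat2, 3.22 for Irf9 and 1.53 for Irf7 to 0.464 for Isg15, 0.0667 for Ifit3 and 0.0192 for Mx1. Ifi27 was thus higher than 98.6% of all records and Mx1 higher than 16.3%. A gene was taken as silent where every library was under 0.1 FPKM, and this held for Mx1 alone. The call depends on the unit, since after rescaling to TPM, parts of the column sum, Mx1 reached 0.203 and was at or above 0.1 in 3 libraries. Isg15 and Ifit3 had means under 1 FPKM and were near silent. Along this order, Ifi27 and Ifnar1, Ifnar1 and Irf1, Irf9 and Irf7, and Isg15 and Ifit3 did not overlap over the 12 libraries. Irf1 and Stat2 could not be ordered, as Irf1 was higher in 8 of 12 libraries with a ratio of means of 1.04, and Ifit3 was above Mx1 in 10 of 12. Stat2 was above Irf9 and Irf7 above Isg15 within each of the 12 libraries, although their ranges overlapped.

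Ifnar1, the receptor chain that carries Tyk2, was expressed in every group. It measured 7.11, 9.93 and 9.93 FPKM in the FCA libraries, 10.3, 9.38 and 6.60 in AT10, 6.51, 6.07 and 10.4 in AT1, and 9.18, 10.9 and 10.5 in AT01. Low values near 6 to 7 FPKM occurred in FCA, AT10 and AT1 alike, and the 4 groups overlapped. The second Ifnar1 record did not exceed 0.21 FPKM.

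Stat2 and Irf9, which are subunits of ISGF3, were the most even of the 9 genes. Stat2 measured 4.11, 3.91 and 3.91 FPKM in FCA, 3.77, 4.06 and 2.86 in AT10, 4.17, 4.25 and 3.95 in AT1, and 3.89, 3.66 and 4.05 in AT01. Irf9 measured 3.54, 3.24 and 3.03 FPKM in FCA, 3.05, 2.67 and 2.78 in AT10, 3.59, 3.20 and 3.43 in AT1, and 3.46, 3.49 and 3.12 in AT01. The highest library was 1.49 times the lowest for Stat2 and 1.34 times for Irf9, and all 3 AT10 values of Irf9 lay below every AT1 and AT01 library.

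Irf1 and Irf7 are transcription factors that are themselves induced, Irf1 mainly by interferon-gamma and Irf7 by type I interferon. Irf1 measured 4.90, 2.54 and 4.04 FPKM in FCA, 4.64, 3.86 and 4.09 in AT10, 3.76, 4.75 and 4.39 in AT1, and 4.80, 4.21 and 2.47 in AT01. Irf7 measured 1.61, 2.10 and 1.21 FPKM in FCA, 1.28, 1.40 and 1.2 in AT10, 1.59, 1.58 and 1.32 in AT1, and 1.44, 1.67 and 1.91 in AT01. FCA itself held nearly the whole range of both genes, with a highest Irf7 value of 2.10 FPKM that no treated library reached.

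Ifi27, which encodes a small hydrophobic protein of organelle membranes, had the highest level of the 9 genes. It measured 156, 161 and 151 FPKM in FCA, 157, 140 and 147 in AT10, 152, 148 and 169 in AT1, and 158, 155 and 102 in AT01. A single AT01 library was low, and the other 11 lay between 140 and 169 FPKM. The neighbouring paralog Ifi27l2b measured 3.12 to 7.35 FPKM, and how reads shared by such near copies were divided is not given in the sources used here.

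Isg15, a ubiquitin-like modifier, was near silent in the same cells. It measured 0.22, 0.35 and 0.52 FPKM in FCA, 0.36, 0.46 and 0.40 in AT10, 0.17, 0.50 and 0.50 in AT1, and 0.28, 1.58 and 0.23 in AT01. Within a library Ifi27 was between 98.3 and 896 times Isg15, with a median of 403. The record used was built from an assembled transcript, and the second record, which holds the annotated transcript, ranged from 0.03 to 0.57 FPKM and stood at 0.04 FPKM in the AT01 library where the first reached 1.58. The lowest ratio to Ifi27 fell in that library. Unlike the record used, the second record overlapped the range of Ifit3, 0.00 to 0.13 FPKM.

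Ifit3 binds other IFIT proteins that recognise foreign RNA, and Mx1 is a dynamin-like antiviral GTPase. Ifit3 measured 0.08, 0.03 and 0.13 FPKM in FCA, 0.08, 0.00 and 0.11 in AT10, 0.01, 0.09 and 0.00 in AT1, and 0.08, 0.10 and 0.09 in AT01. Mx1 measured 0.00, 0.02 and 0.03 FPKM in FCA, 0.02, 0.01 and 0.06 in AT10, 0.00, 0.01 and 0.02 in AT1, and 0.04, 0.01 and 0.01 in AT01. Each gene was listed at 0 in 2 libraries, and at these levels no difference between groups was detectable.

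**Figure D1:**
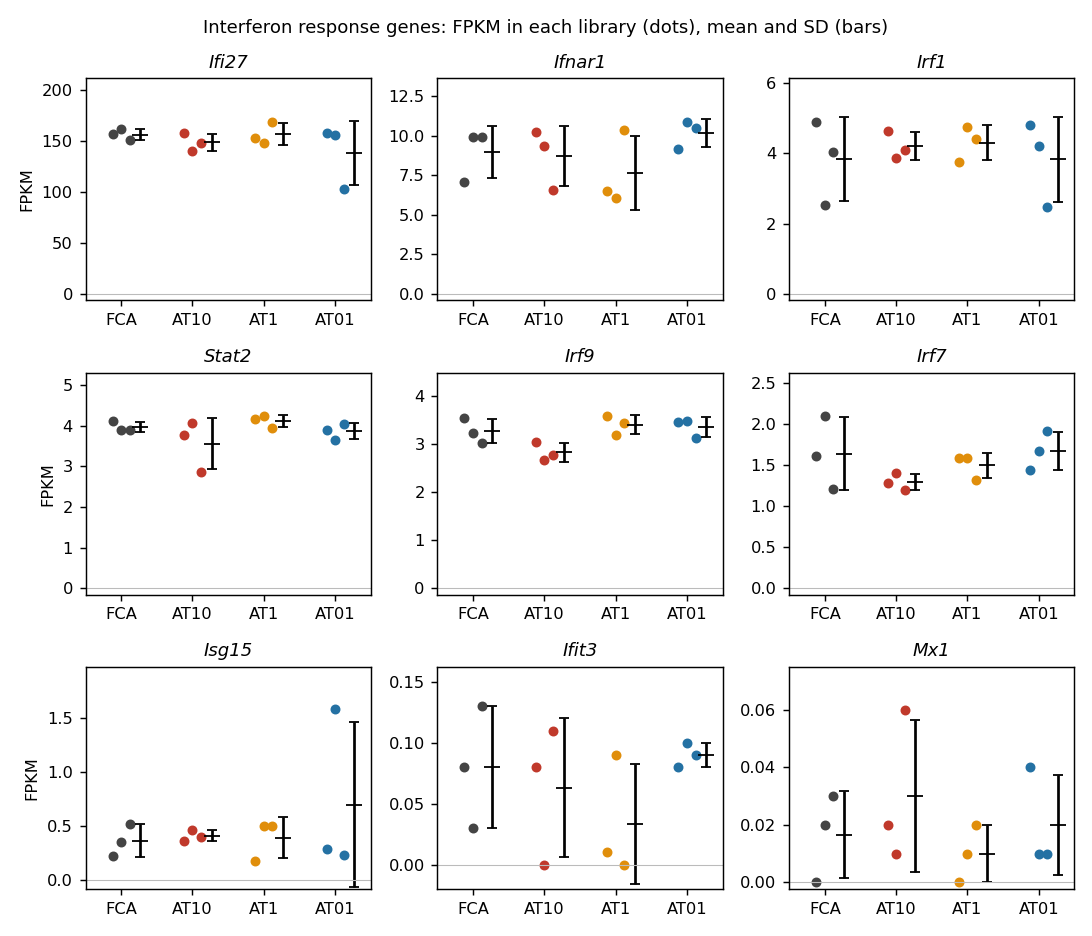
FPKM (linear vertical axes with a line at 0 and their own scale, 1 panel a gene) of the 9 interferon response genes in the FCA, AT10, AT1 and AT01 groups, with 1 point a library and bars for the mean and SD of 3 libraries. The groups overlap in each panel except where AT10 lies below AT1 and AT01 for Irf9 and below AT01 for Irf7, and Mx1 stays under 0.1 FPKM throughout.

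The groups were compared on log2(FPKM + 1) with limma over the 11611 records whose mean reached 1 FPKM. Of the 9 genes, 6 passed this filter and were tested, and Isg15, Ifit3 and Mx1 were not. The criterion of the study asks for more than a 2-fold change, that is a log2 fold change beyond 1 in either direction, together with an unadjusted p below 0.05. Separately, p-values were adjusted by the Benjamini-Hochberg method across all tested records, with a threshold of 0.05. With 3 libraries against 3, the smallest p an exact permutation test can give is 0.1, and with 9 against 3 it is 0.00455. In bulk RNA, fewer cells of a type and less RNA per cell cannot be told apart. AT10, AT1 and AT01 share the FCA libraries, and comparisons that hold the same dose share its libraries.

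At 10 µM none of the 6 genes passed either threshold against FCA. The largest difference was in Irf7, at 1.29 ± 0.10 FPKM in AT10 and 1.64 ± 0.45 in FCA (SD, n = 3), a log2 fold change of -0.19 ± 0.14 (SE) with an adjusted p of 0.615 in limma and an exact permutation p of 0.30. Irf9 followed at 2.83 ± 0.20 against 3.27 ± 0.26 FPKM, a log2 fold change of -0.16 ± 0.08 with the smallest adjusted p of the comparison, 0.514. Of the 6 genes, 5 lay below 0 with a median of -0.10, beside a median of -0.01 over all records. No gene met the criterion of the study, which 0.706% of all records met, none reached an adjusted p under 0.05 (0.172% of records), none had an unadjusted p under 0.05 (11.9%), and none had groups that did not overlap (19.9% of records).

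At 1 µM the 6 genes again did not pass against FCA. Ifnar1 differed most, at 7.65 ± 2.36 FPKM in AT1 and 8.99 ± 1.63 in FCA, a log2 fold change of -0.23 ± 0.22 with an adjusted p of 0.686 in limma. Ifi27 was at 156.5 ± 10.96 FPKM in AT1 and 156.2 ± 5.21 in FCA, and the 95% interval of its log2 fold change ran from -0.17 to 0.17. The criterion of the study was met by 0 of 6 genes and by 0.62% of records, an adjusted p under 0.05 by 0 of 6 and by 0.0947%, and separate groups by 0 of 6 and by 19.9%. None had an unadjusted p under 0.05, beside 11% of records.

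At 0.1 µM the means of Irf1 were equal to 3 digits, at 3.83 ± 1.21 FPKM in AT01 and 3.83 ± 1.19 in FCA. Ifi27 was at 138 ± 31.3 FPKM against 156.2 ± 5.21, a log2 fold change of -0.20 ± 0.18 with an adjusted p of 0.825 in limma, and without the third AT01 library the log2 fold change was 0.0032. Ifnar1 was at 10.2 ± 0.90 against 8.99 ± 1.63 FPKM, a log2 fold change of 0.18 ± 0.15 with an adjusted p of 0.823. None of the 6 genes met the criterion of the study (0.758% of records), none reached an adjusted p (0.0947%) or an unadjusted p under 0.05 (6.6%), and no gene had groups that did not overlap (14% of records).

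With the 9 TCDCA libraries pooled, the log2 fold changes against FCA ran from -0.09 for Ifi27 to 0.10 for Irf1. Stat2 ranged from 2.86 through a median of 3.95 to 4.25 FPKM over the treated libraries, which covered the 3 FCA values. The log2 fold change of Stat2 was -0.04 ± 0.08, with an adjusted p of 0.857 in limma and an exact permutation p of 0.609. Irf9 ranged from 2.67 through 3.20 to 3.59 FPKM, a log2 fold change of -0.03 ± 0.08 with an adjusted p of 0.907. No gene met the criterion of the study (0.491% of records), an adjusted p under 0.05 (0.0258%) or an unadjusted p under 0.05 (12%), and none separated from FCA (2.86%).

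Between the doses, none of the 6 genes passed either threshold. Irf9 was lower in AT10 than in AT1, at 2.83 ± 0.20 against 3.41 ± 0.20 FPKM, a log2 fold change of -0.20 ± 0.08 with an unadjusted p of 0.0446 in limma, the smallest of all 42 tests of the 6 genes. In this comparison 6.46% of records had an unadjusted p under 0.05. The adjusted p was 0.748 and the exact permutation p was 0.1, so Irf9 did not pass. It was the only 1 of 6 genes with groups that did not overlap, beside 13.9% of records, and 0 of 6 met the criterion of the study (0.594%) or an adjusted p under 0.05 (0.258%).

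Against AT01, AT10 was lower in Irf9 and Irf7, whose groups did not overlap. Irf7 was at 1.29 ± 0.10 against 1.67 ± 0.24 FPKM, a log2 fold change of -0.22 ± 0.11 with an adjusted p of 0.867 in limma and an exact permutation p of 0.1. Irf9 was at 2.83 ± 0.20 against 3.36 ± 0.21 FPKM, a log2 fold change of -0.18 ± 0.09 with the same adjusted and exact p. These 2 of 6 genes stand beside 11.1% of records without overlap, and 0 of 6 genes met the criterion of the study (0.672%), an adjusted p under 0.05 (0.0689%) or an unadjusted p under 0.05 (4.97%).

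Between AT1 and AT01 the largest of all the differences was seen in Ifnar1. It was at 7.65 ± 2.36 FPKM in AT1 and 10.2 ± 0.90 in AT01, a log2 fold change of -0.40 ± 0.20 with a 95% interval of -0.90 to 0.09, an adjusted p of 1.0 in limma and an exact permutation p of 0.20. None of the 6 genes met the criterion of the study (0.568% of records), an adjusted p (0.129%) or an unadjusted p under 0.05 (3.43%), or had separate groups (8.6%). Over all 7 comparisons, the 95% intervals of the 6 genes lay within -0.90 and 0.78 on the log2 scale, on which adding 1 FPKM makes changes of low genes smaller. With 0.1 FPKM added instead, the bounds were -0.9965 and 0.87.

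**Figure D2:**
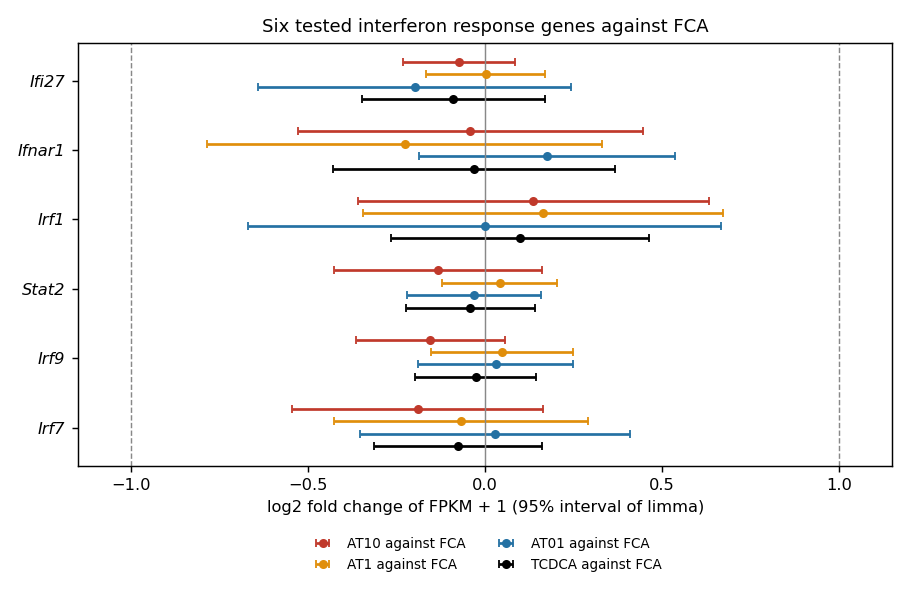
Log2 fold change of FPKM + 1 (horizontal axis, points with 95% intervals from limma) for the 6 tested interferon response genes in AT10, AT1, AT01 and the pooled TCDCA libraries against FCA, with dashed lines at -1 and 1. Every interval crosses 0, and the outermost bounds are -0.79 for Ifnar1 and 0.67 for Irf1 in AT1 against FCA.

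The rest of the pathway was described with 7 lists by role, of 107 further genes, of which 92 had a record and 49 were tested. Receptors and most of the signal relay were expressed, and the ligands with a record were near silent. Of 41 effectors with a record, 17 had a mean of at least 1 FPKM, beside 51.7% of all records. Of 11 interferon ligands 3 had a record, Ifne, Ifnb1 and Ifna5, with means of at most 0.0708 FPKM, and none was tested. All 6 receptor chains, Ifnar1 among them, were expressed at means of 5.14 to 16.5 FPKM, led by Il10rb, which pairs with the interferon-lambda receptor, at 16.5 FPKM and Ifngr2, the signalling chain of the interferon-gamma receptor, at 13.5 FPKM. In the JAK-STAT list 11 of 13 genes were tested, led by Jak1 at 44.6 and Stat3 at 42.5 FPKM.

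In the IRF family 6 of 9 genes were tested, and the constitutive factor Irf3 was highest at 9.44 FPKM, above Irf2 at 4.04 and Irf1 at 4.04 FPKM. Among 12 nucleic acid sensors and adaptors 7 were tested, led by the adaptor Traf3 at 7.91 FPKM and the kinase Tbk1 at 5.22 FPKM. Of 41 interferon-stimulated effectors with a record, Ifi27, Isg15, Ifit3 and Mx1 among them, 24 had means under 1 FPKM. Mx1 was 1 of 4 that were silent in every library. Only Ifitm3 (360 FPKM), Ifitm2 (171), Ifi27 (149.9) and Shisa5 (47.0) exceeded 10. Near Mx1 stood its paralog Mx2, which did not exceed 0.04 FPKM, and near Ifit3 stood Ifit1, which did not exceed 0.18. Of 18 interferon-gamma-inducible and antigen presentation genes with a record 9 were tested, from Ccl2, a monocyte chemokine, at 1625 FPKM and B2m, the class I light chain, at 159.9 FPKM down to Ccl5, which was listed at 0 in all libraries.

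**Figure D3:**
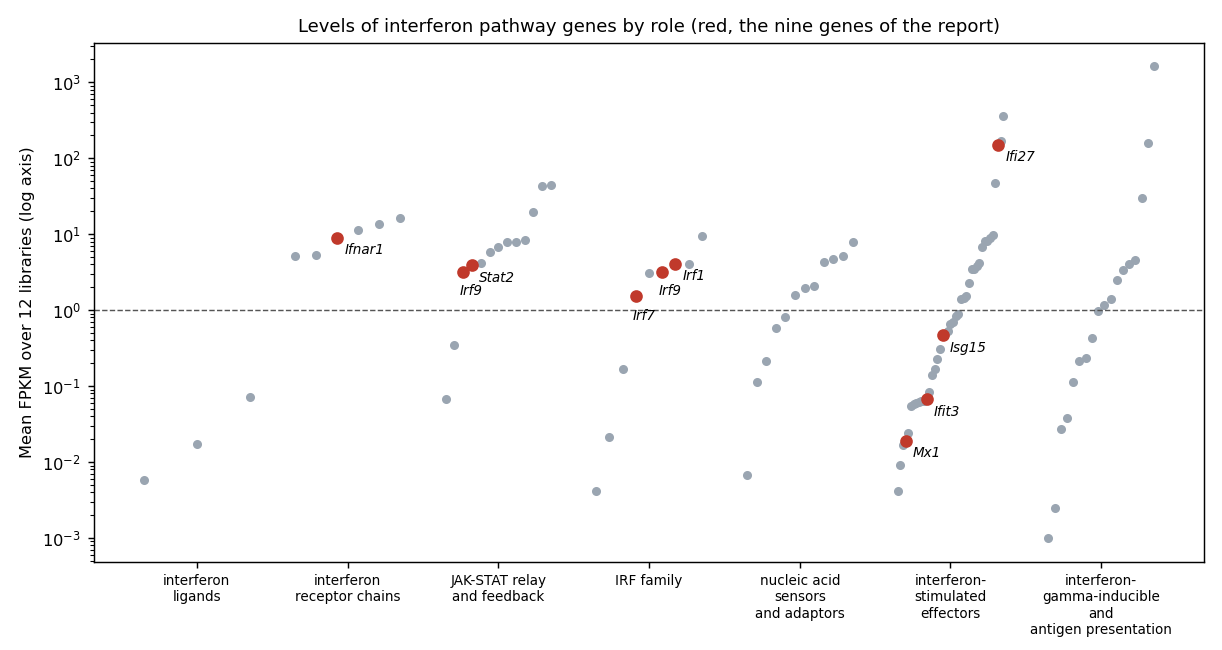
Mean FPKM over 12 libraries (log axis) of interferon pathway genes with a record, by role, with the 9 interferon response genes in red, Irf9 in both lists that hold it, and Ccl5, listed at 0, drawn at the lowest tick. Receptor chains lie between 5.14 and 16.5 FPKM, while effectors run from below 0.01 to 360 FPKM with Mx1, Ifit3 and Isg15 under the dashed line at 1 FPKM.

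An ISRE stretch stood in 38 of 82 other pathway genes with a promoter in the table (46.3%). Of the 30 with both a match and a record, 16 had means under 1 FPKM and 3 had means of at least 10 FPKM. Among all 92 further genes with a record, these counts were 43 and 12. The stretch was thus found in near silent and in abundant genes alike, as in Ifit3 and Ifi27 above. A GAS core stood in 17 of the 82 (20.7%).

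Of the 49 further genes tested, none reached an adjusted p under 0.05 in any of the 7 comparisons with limma. In AT10 against FCA 2 of 49 had an unadjusted p under 0.05, both higher, beside 875 higher and 504 lower of 11611 records, and 28 of 49 lay below 0, beside 6000 records. Ifngr1 was one of them, the ligand-binding chain of the interferon-gamma receptor, named after its values were seen. It measured 10.99, 10.93 and 10.34 FPKM in FCA and 13.0, 13.2 and 13.5 in AT10, a log2 fold change of 0.28 ± 0.06 with an adjusted p of 0.186, while Ifnar1 in the same libraries gave -0.04 ± 0.20. The other was Eif2ak2, an RNA-activated kinase, at a log2 fold change of 0.34 ± 0.11 and an adjusted p of 0.348.

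In AT1 against FCA, 35 of 49 genes lay above 0 with a median of 0.06, beside 6175 of 11611 records and a median of 0.02. At an unadjusted p under 0.05, 6 were higher and 1 lower, beside 646 and 632 of all records. Of the JAK-STAT list, Jak1, Jak2 and Ptpn2 were among the higher genes, at log2 fold changes of 0.18, 0.33 and 0.31, and the lower gene was the inhibitor Socs3, at -0.19. Their smallest adjusted p was 0.362. Stat2 in the same comparison was at 0.04 ± 0.07.

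In AT10 against AT1, 32 of 49 genes lay below 0 with a median of -0.11, beside 6128 of 11611 records and a median of -0.01. At an unadjusted p under 0.05, 5 were lower and 2 higher, beside 434 and 316 of all records. Ube2l6, the conjugating enzyme that attaches Isg15 to proteins, was the only gene of the lists that met the criterion of the study in any comparison. It measured 12.9, 10.4 and 13.1 FPKM in AT10, 4.71, 6.00 and 5.10 in AT1, 7.17, 12.9 and 12.7 in AT01, and 4.92, 6.82 and 11.4 in FCA. AT10 and AT1 did not overlap, whereas FCA spread over most of the range of both. The log2 fold change of AT10 against AT1 was 1.06 ± 0.12 with an unadjusted p of 0.000184, an adjusted p of 0.0627 in limma and an exact permutation p of 0.1. Without the first AT1 library the log2 fold change was 0.9971, just short of the criterion, and with median-of-ratios scaling it was 1.08 with an adjusted p of 0.0493. Without the third AT1 library a second gene met the criterion, the adhesion molecule Icam1. Icam1 measured 17.5, 18.9 and 36.7 FPKM in AT1 and 38.4, 38.6 and 36.5 in AT10, so the library left out was its highest in AT1. It measured 22.9, 18.2 and 39.9 FPKM in FCA and 41.1, 37.3 and 18.4 in AT01, so these groups also held low and high values. In the fit without the third AT1 library, 1 gene other than Ube2l6 had an adjusted p under 0.05 in limma, while Ube2l6 was at 0.163. Isg15 itself was at 0.41 ± 0.05 and 0.39 ± 0.19 FPKM in these groups.

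In AT1 against AT01, 39 of 49 genes lay above 0 with a median of 0.04, beside 6493 of 11611 records and a median of 0.02. The AT1 libraries are also those compared with FCA and AT10 above, so these directions are not separate results. The JAK-STAT list, Stat2 and Irf9 among its genes, lay above 0 in 11 of 11 genes with a median of 0.07. The effector list, which includes Ifi27, did so in 16 of 17 with a median of 0.16. Without the third AT01 library the log2 fold change was -0.0231 for Irf9 and -0.0023 for Ifi27. Of the 49 further genes 2 were higher and 1 lower at an unadjusted p under 0.05, beside 200 and 198 records. In AT01 against FCA 29 of 49 lay above 0, beside 5844 records, with 0 higher and 2 lower at that p, beside 298 and 468 records. In AT10 against AT01 25 of 49 lay above 0, beside 5796 records, with 2 higher and 1 lower, beside 249 and 328. With the 9 TCDCA libraries together 27 of 49 lay above 0 against FCA, beside 5885 records, and 680 records were higher and 714 lower at an unadjusted p under 0.05. The pathway genes with an unadjusted p under 0.05 were Ptpn2, a phosphatase of JAK and STAT proteins, at 0.27 ± 0.09 and Socs3 at -0.23 ± 0.08, both with an adjusted p of 0.339.

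**Figure D4:**
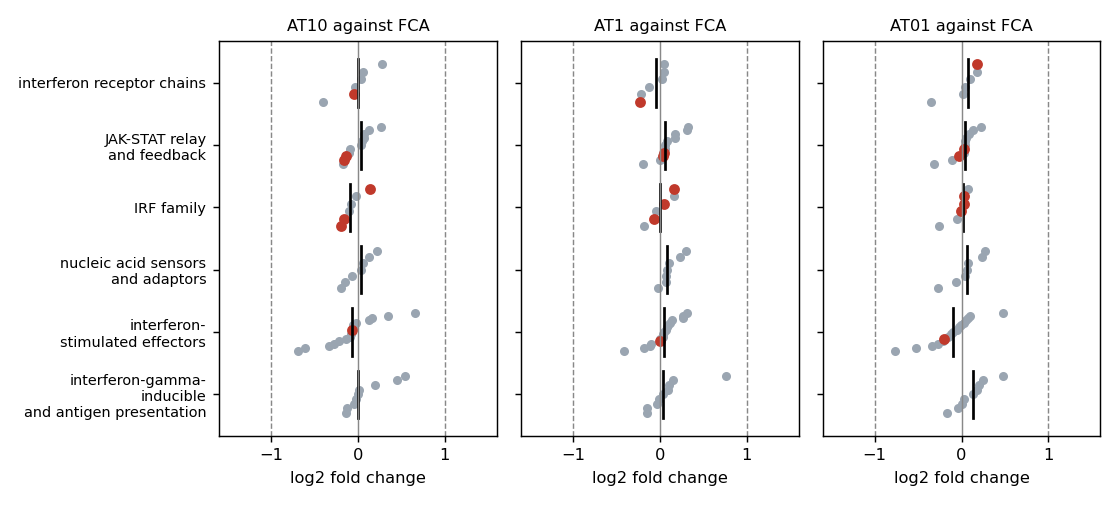
Log2 fold changes of FPKM + 1 (horizontal axis) against FCA for AT10, AT1 and AT01, 1 panel a dose, with 1 point a tested gene in rows by role, the 6 tested interferon response genes in red, the median of a list as a black bar and dashed lines at -1 and 1. No point lies outside the dashed lines.

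The 6 tested genes did not share 1 pattern. Pearson r between pairs of them over the 12 libraries ran from -0.668 for Irf1 and Irf7 to 0.579 for Ifi27 and Irf1. Averaged as standardised values, they were lowest in the third AT10 library, at a mean of -1.14 SD, where Stat2 was at its lowest, and highest at 0.43 SD in the second AT01 library. The records most like this average over 12 libraries were Sardh, Cap2, Efemp2, Lepr and Ccdc65, with Pearson r of 0.964, 0.937, 0.92, 0.916 and 0.902, none of which is on the pathway lists. These records had the highest r in a search over the 11611 tested records without the 6 genes, a choice that by itself yields high values. These values describe the 12 libraries, and no test was made of them.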

How the data were processed

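Poly(A) RNA of 12 libraries was sequenced as paired ends with strand marking (dUTP). Per the labels and the paper, the authors trimmed the reads, aligned them with HISAT2 and assembled and quantified transcripts with StringTie. The deposited values are FPKM to 2 decimals per gene record, and the unit is already per length and per mapped reads, so the values depend on the assembled gene models. The sequencer is given differently by the labels and the design text. Strand and multi-mapping settings of the quantification are not given in the sources used here.

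Groups followed the sample titles. Values were analysed as log2(FPKM + 1), with a filter at a mean of 1 FPKM, in limma 3.58.1 (lmFit, eBayes with trend) under R 4.3.3, and each fit held only the libraries of the groups it compared. A fold change on this scale understates the change of low genes. Exact permutation tests were two-sided, on the difference of mean log2 values. Summaries and figures used Python 3.11.15, NumPy 2.4.6, pandas 2.3.3 and Matplotlib 3.10.9. In data simulated from these libraries, limma called 86% of records moved by 2 on the log2 scale and 54% of those moved by 1 for AT10 against FCA, over 11611 records.

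The genes, lists, motifs and tests were chosen with earlier results of these data known. Named beside the 9 genes were, of each list with tested genes, the 2 most abundant of these and each gene past a threshold, and others were added after their values were seen. Alternatives were the pseudocount, the filter, the scaling, summed records, a joint fit, an F test, records at 2 levels left out, the replicate number as a block and each library left out. No pairing by replicate number was detected: the correlation of deviations from group means ran from -0.105 to 0.0942 over 18 same-numbered pairs. Differently numbered pairs reached -0.154 and 0.149. The check cannot show that no culture or animal was shared, since noise of single records lowers such correlations.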

Additional observations from a re-analysis of the deposited data

Results flagged for a closer look

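Among the 9 TCDCA libraries, 4 of 22 genes examined had a value that lay far from the others, by Dixon's ratio of the gap to the whole range, a limit that chance passes in about 1 in 20 groups. Ifi27 was at 102.42 FPKM in the third AT01 library, where the next lowest library was at 140 FPKM and the gap was 0.572 of the range. Irf1 was at 2.47 FPKM in the same library, with the next lowest at 3.76 FPKM and a gap of 0.554 of the range, but FCA also held a value of 2.54 FPKM. Stat2 was at 2.86 FPKM in the third AT10 library, with the next at 3.66 FPKM and a gap of 0.576. Isg15 was at 1.58 FPKM in the second AT01 library, with the next highest at 0.50 FPKM and a gap of 0.766, while its second record was at 0.04 FPKM there.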

How the results depend on the processing

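No alternative gave any of the 6 tested genes an adjusted p under 0.05 or a call by the criterion of the study: over 673 alternative values the log2 fold changes ran from -0.62 to 0.40, with a smallest adjusted p of 0.414. Of these values 36 changed sign, none of them from a main value over 0.20 in size. With values rescaled to TPM, Ifnar1 in AT10 against FCA was at 0.0068, Irf1 in AT01 against FCA at 0.0018 and Irf1 in AT10 against AT1 at 0.0043, and with median-of-ratios scaling Ifi27 in AT1 against FCA was at -0.0194. With each library left out in turn, the log2 fold changes that turned sign ranged as follows. In AT10 against FCA, Irf1 ran from -0.0723 to 0.2962 and Ifnar1 from -0.1853 to 0.1277. In AT1 against FCA, Ifi27 ran from -0.055 to 0.0387, Irf1 from -0.0455 to 0.323 and Irf7 from -0.19 to 0.0541. In AT01 against FCA, Ifi27 ran from -0.3054 to 0.0032, Irf1 from -0.2096 to 0.2194, Irf7 from -0.0932 to 0.1509 and Irf9 from -0.0112 to 0.0747. In TCDCA against FCA, Irf1 ran from -0.1091 to 0.2593, Irf7 from -0.1983 to 0.0458, Irf9 from -0.0673 to 0.0187 and Ifnar1 from -0.175 to 0.0402. In AT10 against AT1, Irf1 ran from -0.1022 to 0.0341. In AT10 against AT01, Ifi27 ran from -0.0771 to 0.2315, Stat2 from -0.1809 to 0.0144 and Irf1 from -0.0839 to 0.2867. In AT1 against AT01, Ifi27 ran from -0.0023 to 0.3063, Irf1 from -0.0571 to 0.3135 and Irf9 from -0.0231 to 0.0508. Among the 49 further pathway genes, the count past the criterion ran from 0 to 1 in AT10 against FCA (1 without the third FCA library), from 0 to 2 in AT10 against AT1 (0 without the first and 2 without the third AT1 library) and from 0 to 1 in AT1 against AT01 (1 without the first AT01 library). In AT10 against AT1 this count was 0 with a mean of at least 10 FPKM, since 12 genes were left, and the count at an adjusted p under 0.05 was 1 with median-of-ratios scaling and 0 to 1 with a library left out (1 without the third AT1 library); the cause was not tested. The replicate number as a block changed no call: 0 of the 6 genes were called in each comparison, and Irf9 in AT10 against AT1 kept a log2 fold change of -0.20 with an adjusted p of 0.802 under the block. With TPM, 2 in place of 3 genes had means under 1, with Isg15 at 1.56 TPM. Without counts per record, the number of reads behind low values cannot be stated, and values under 0.1 FPKM carry no order between groups.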

Other observations

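The most abundant interferon-stimulated effectors, Ifitm3 and Ifitm2, which encode membrane proteins that hinder virus entry, varied widely between libraries of a group. Ifitm3 measured 150, 476 and 461 FPKM in FCA, 46.4, 430 and 461 in AT10, 499, 162 and 502 in AT1, and 20.5, 576 and 541 in AT01. Each group held 1 low and 2 high libraries. Ifitm2 was at 28.2 FPKM in the third AT01 library and between 94.3 and 241 FPKM elsewhere. The 2 genes are close copies, and their sum, formed after the values were seen, ranged from 255 to 816 FPKM, or 3.19-fold.

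Ifit2, a neighbour of Ifit3, was listed at 0 in the first AT10 library, at 0.10 FPKM in the third AT01 library, and between 1.04 and 2.16 FPKM in the other 10. Ifit3 in these 2 libraries was at 0.08 and 0.09 FPKM, inside its range elsewhere.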
